A study of Mus musculus with 6 samples.

Results

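The immunoproteasome and the loading of peptides on major histocompatibility complex (MHC) class I were followed through 10 genes, taken from the count table by symbol: Psmb8, Psmb9, Psmb10, Psme1, Psme2, Tap1, Tap2, Tapbp, B2m and Erap1. All 10 were found among 30438 symbols, and all 10 had enough counts to be fitted. The set was put together with results of this comparison known, in particular that Psmb8 was lower while other interferon genes were higher, so the difference between the groups in these 10 genes is described here and not tested.

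The libraries were poly(A)-selected RNA from HEI-OC1, a mouse cell line of the organ of Corti that the labels call a cochlear stem cell. The line carries a temperature-sensitive viral large T antigen under the promoter of an MHC class I gene, which responds to interferon, and it grows at the permissive temperature of 33 °C. The control group was unedited HEI-OC1 of wild-type genotype (labelled OC1, 3 libraries), and the other group was HEI-OC1 labelled as an Nrf2 knockout (Nrf2 KO, 3 libraries), both in 10% CO2 and 10% fetal bovine serum with no drug recorded. The sources used here do not give how the knockout was made, or whether the line is 1 clone or several. The submitters' stated aim was to find genes behind the cisplatin resistance of the knockout line, so the comparison is Nrf2 KO against OC1.

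Every cell cuts cytosolic proteins in the proteasome, and some of the fragments are shown on the surface by class I molecules. Interferon gamma replaces the 3 catalytic subunits of the constitutive core, encoded by Psmb5, Psmb6 and Psmb7, with Psmb8, Psmb9 and Psmb10, which gives the immunoproteasome. It also raises the activator cap made of Psme1 and Psme2. The transporter formed by Tap1 and Tap2 carries peptides into the endoplasmic reticulum, Erap1 trims them there, Tapbp (tapasin) holds the empty class I molecule at the transporter, and B2m is the light chain of every class I molecule.

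Totals ran from 29130007 to 51285343 counts per library. Nfe2l2, the gene of NRF2, was at 74.2, 126 and 96.7 CPM (counts scaled to the library's size) in the control libraries and at 396, 236 and 205 in those labelled Nrf2 KO (log2 fold change 1.49, SE 0.33, adjusted p = 0.0456 by the quasi-likelihood test of edgeR, and under 0.05 in 8 of 15 other settings, from 0.000371 to 0.202). These settings are other scalings, filters and tools, the replicate number as a block, and fits that leave out libraries. The block assumes that same-numbered libraries are pairs, which the labels do not state. The transcript therefore goes against the label. Counts per gene cannot show a small edit within a transcript, and directions are given throughout for the libraries as labelled. The first principal component of log2 CPM (51.2% of the variance) split the groups, and the second (41.2%) set both replicate 1 libraries, most of all that of Nrf2 KO, apart from the others. Results are therefore also given without Nrf2 KO replicate 1, or without both replicate 1 libraries, where they change. The labels do not say that the 3 libraries of a group were separate cultures, so the spread between them may be technical. Symbols in the table follow rat names (40 begin with RT1 and 0 with H2-), and how evenly mouse reads were counted between genes was not tested.

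In the mouse gene order of RefSeq (GRCm38.p6), Psmb9, Tap1, Psmb8 and Tap2 lie side by side in the MHC on chromosome 17. Promoters of 9 of the 10 genes were in the RefSeq table, each covering 250 bases before and 50 after a start of transcription, and Tap2 had none there. The Psmb9 and Tap1 windows share 275 bases on opposite strands, with 225 bases between the 2 starts, so a single stretch serves both genes. Those of 3 genes are printed, since they belong to the gene that differed most, to the divergent pair and to the most abundant member: the promoter of Psmb8 at chr17:34197945-34198244 (plus strand), that of Tap1 at chr17:34187306-34187605 (plus strand) and that of B2m at chr2:122147437-122147736 (plus strand). Capitals mark matches to the motifs searched on both strands.
Psmb8: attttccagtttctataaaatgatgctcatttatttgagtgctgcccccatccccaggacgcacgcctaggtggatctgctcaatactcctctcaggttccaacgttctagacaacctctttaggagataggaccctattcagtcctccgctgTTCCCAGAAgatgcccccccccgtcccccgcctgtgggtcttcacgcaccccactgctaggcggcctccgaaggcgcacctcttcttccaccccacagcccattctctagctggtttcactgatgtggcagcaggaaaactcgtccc
Tap1: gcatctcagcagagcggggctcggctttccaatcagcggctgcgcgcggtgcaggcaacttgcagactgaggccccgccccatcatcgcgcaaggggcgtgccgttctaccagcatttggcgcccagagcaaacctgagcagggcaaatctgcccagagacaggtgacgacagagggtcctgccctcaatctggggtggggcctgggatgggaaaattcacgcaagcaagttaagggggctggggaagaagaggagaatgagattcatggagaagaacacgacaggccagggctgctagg
B2m: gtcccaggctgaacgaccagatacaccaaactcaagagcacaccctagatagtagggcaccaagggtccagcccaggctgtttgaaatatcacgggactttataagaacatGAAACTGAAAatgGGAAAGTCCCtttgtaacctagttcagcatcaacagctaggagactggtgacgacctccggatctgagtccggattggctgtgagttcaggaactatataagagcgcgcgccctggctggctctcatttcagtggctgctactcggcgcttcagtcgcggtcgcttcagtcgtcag

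The motifs searched numbered 4: the interferon-stimulated response element (ISRE, GAAA repeated with any 2 bases between the copies), the gamma-activated site (GAS, TTCNNNGAA), the antioxidant response element bound by NRF2 (ARE, TGACNNNGC) and an NF-kB site (GGGA, any 2 bases, TTCC). No match of 1 motif overlapped that of another in the sequences printed. The stretch in capitals in Psmb8 is a GAS match, TTCCCAGAA, which begins 97 bases before the start. Like every match to this motif, it reads as a match on both strands. Psmb8 was the 1 member gene of 9 with a GAS match, and 9.55% of 27025 mouse genes have one in a promoter of this length (8.3% of 32851 promoters). In B2m an ISRE match, GAAACTGAAA, begins 139 bases before the start, and an NF-kB match, GGAAAGTCCC on the minus strand, 126 bases before it. ISRE matches were also in Psme1 and Erap1, 3 of the 9 member genes in all, against 3.99% of all genes (3.44% of promoters), and NF-kB matches were in 1.63% of all genes (1.47% of promoters). The stretch between Psmb9 and Tap1 held none of the 4 motifs. An ARE was in the promoters of 0 of the 9 member genes and of 14.0% of all genes (12.4% of promoters). Among the constitutive counterparts, Psmb5 has the ARE match TGACGTCGC and Psmb6 the ARE match TGACGGAGC. Psmb7 had no promoter in the RefSeq table and could not be searched. A match describes letters only, and says nothing of whether a factor binds there.

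Of the 3 catalytic subunits, Psmb8 stood apart. Psmb8, whose product takes the chymotrypsin-like site held by PSMB5 in the constitutive core, was at 6.53, 7.08 and 7.17 CPM in the control libraries and at 0.894, 1.67 and 1.24 CPM in those labelled Nrf2 KO. The counts behind these levels were 256, 315 and 278 against 28, 82 and 51. The groups lay far apart, and the spread within each was small beside the gap: 6.93 ± 0.345 against 1.27 ± 0.389 CPM (SD, n = 3 each), 5.42-fold lower (log2 fold change -2.44, SE 0.29). Of all 14618 genes fitted, 0.917% had a lower log2 fold change than Psmb8. This rank is a description only, since Psmb8 was known to be lower when the genes were chosen. In bulk RNA, fewer cells with the transcript and less of it per cell cannot be told apart. Under the 15 other settings, which include each library left out in turn, the log2 fold change of Psmb8 stayed between -2.69 and -2.25.

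Psmb9, the interferon-induced replacement of PSMB6, was at 60.8, 36.3 and 43.7 CPM in the control libraries and at 46.0, 26.2 and 32.6 in those labelled Nrf2 KO (log2 fold change -0.43, SE 0.28). Psmb10, which replaces PSMB7, was at 37.6, 26.2 and 31.6 against 30.1, 25.1 and 28.1 CPM (-0.19, SE 0.18). For both genes the groups overlapped, and in each group replicate 1 was the highest library. Between libraries of the same number, that of Nrf2 KO was the lower in all 3 pairs for both genes. The labels do not state such pairs, and for Psmb10 Nrf2 KO replicate 3 was above OC1 replicate 2 (28.1 against 26.2 CPM). With the replicate number as a block the values were -0.43 (SE 0.11) for Psmb9 and -0.18 (SE 0.12) for Psmb10. Without Nrf2 KO replicate 1 the value of Psmb9 was -0.68. The ratios among the 3 subunits of the particle differed between the groups: from control to Nrf2 KO, Psmb8 went from 15.6 ± 4.45% of the counts of Psmb9 to 4.03 ± 2.22%, and from 22.4 ± 4.82% of those of Psmb10 to 4.67 ± 1.85% (SD, n = 3 each). These ratios are taken within a library and do not depend on how libraries are scaled.

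**Figure D1:**
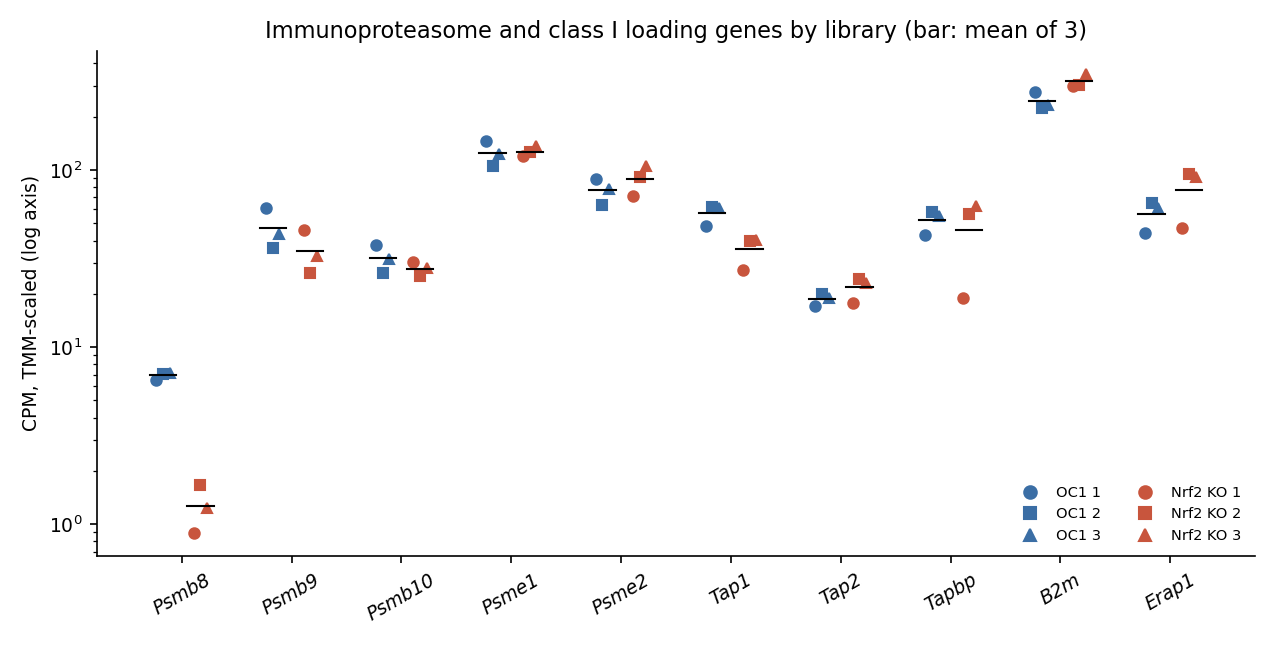
Level of each of the 10 genes in each library, as TMM-scaled CPM on a log axis, with blue for OC1, red for Nrf2 KO, a marker shape per replicate and a bar at the mean of 3. Psmb8 lies between 6.53 and 7.17 CPM in the control libraries and between 0.894 and 1.67 in the others, while 7 of the 10 genes overlap between groups.

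Levels of different genes can be compared only per length, for which the authors' deposited table has 1 FPKM value per group and no value per library. In that table the control group had 5.24 FPKM of Psmb8, 42.3 of Psmb9 and 26.2 of Psmb10, beside 195.5 of Psmb5, 198.6 of Psmb6 and 339.3 of Psmb7. Each constitutive subunit was thus listed above its counterpart, by 37.3 times for Psmb5 over Psmb8, 4.70 times for Psmb6 over Psmb9 and 12.9 times for Psmb7 over Psmb10. In the group labelled Nrf2 KO the authors' deposited table gives 0.933 FPKM for Psmb8 and 142 for Psmb5, a ratio of 152.5. The other 2 pairs moved less there: 3.49 times for Psmb6 over Psmb9 and, for Psmb7 (273.5 FPKM) and Psmb10 (22.8), close to the control ratio. Among the other members the FPKM of the control group ran from 6.35 for Tap2 to 109.7 for B2m, with Erap1 at 12.5, Tap1 at 17.5, Tapbp at 27.3, Psme2 at 47.1 and Psme1 at 103.5.

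**Figure D2:**
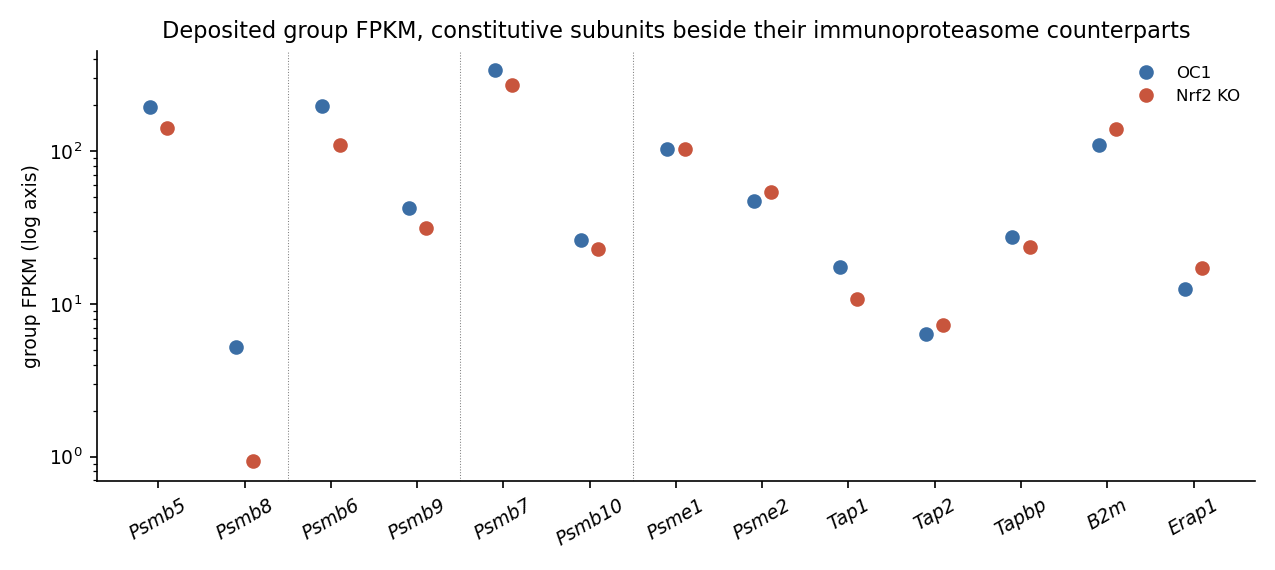
The authors' deposited group FPKM on a log axis for each constitutive subunit beside its immunoproteasome counterpart, and for the other members, with 1 value per group and no error. Psmb8 is the lowest point in both groups, at 5.24 FPKM in OC1 and 0.933 in Nrf2 KO.

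Within libraries, the count of Psmb8 was 3.01, 3.82 and 3.47% of that of Psmb5 in the control group and 0.945, 0.996 and 0.658% in the group labelled Nrf2 KO. These values do not overlap. Psmb9 was at 27.1, 23.5 and 24.6% of Psmb6 against 55.5, 24.7 and 26.7%, and Psmb10 at 8.79, 7.34 and 7.62% of Psmb7 against 14.6, 6.74 and 6.95%. In both of these pairs Nrf2 KO replicate 1 was far above every other library, and the other libraries lay close together. That library also had the lowest CPM of Psmb5 (94.6), Psmb6 (82.9) and Psmb7 (206) of all 6.

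**Figure D3:**
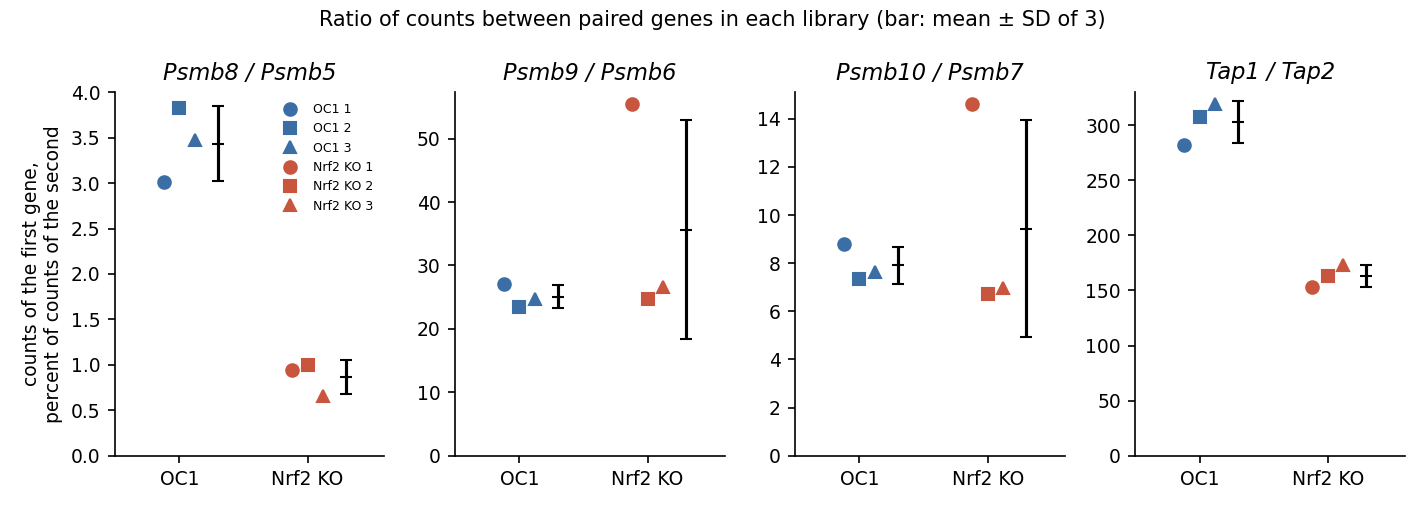
Counts of the first gene as a percentage of the counts of the second in each library, with the mean and SD of 3 beside each group. The ratio of Psmb8 to Psmb5 and that of Tap1 to Tap2 do not overlap between groups, while the other 2 panels are set apart by Nrf2 KO replicate 1 alone (55.5% and 14.6%).

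The 2 genes of the activator cap, which opens the end of the proteasome barrel, showed small differences. Psme1 was at 147, 106 and 123 CPM in the control libraries and at 119, 126 and 136 in those labelled Nrf2 KO (log2 fold change 0.02, SE 0.17), and its sign changed with the setting, from -0.085 to 0.199. Psme2 was at 88.5, 63.5 and 78.2 against 71.2, 91.1 and 106 CPM (0.22, SE 0.21). For each gene the groups overlapped.

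The transporter chains differed from each other. Tap1 was at 48.4, 61.7 and 60.7 CPM in the control libraries and at 27.3, 39.8 and 40.1 in those labelled Nrf2 KO, on average 56.9 ± 7.42 and 35.7 ± 7.31 (SD over 3 libraries) and 1.59-fold lower (log2 fold change -0.67, SE 0.21). All 3 libraries labelled Nrf2 KO lay below all 3 controls. Tap2, the partner chain, was at 17.1, 20.1 and 19.0 against 17.8, 24.4 and 23.1 CPM (0.22, SE 0.18), with overlap. The count of Tap1 was 282, 307.5 and 319% of that of Tap2 in the control libraries and 153, 163 and 173% in the others. Tap1 and Psmb9 share their promoter stretch, printed above. Both had negative log2 fold changes in each of the 15 other settings, which reuse the same libraries. Tap2, on the far side of Psmb8, was positive in each. A link between the shared stretch and these directions was not tested.

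Tapbp, the adaptor that bridges the transporter and class I, was at 43.2, 57.6 and 55.0 CPM in the control libraries and at 18.9, 56.6 and 62.9 in the others (log2 fold change -0.17, SE 0.44). Nrf2 KO replicate 1 alone lay below the controls, and without it the value was 0.20. Its relative Tapbpl, which edits peptides without the transporter, is among the genes of the lists below.

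B2m, the most abundant member by CPM, was at 276, 225 and 233 in the control libraries and at 299.8, 302 and 350.1 in those labelled Nrf2 KO, on average 245 ± 27.5 and 317 ± 28.3 CPM (SD over 3 libraries). All libraries labelled Nrf2 KO were above all controls, by 1.30-fold (log2 fold change 0.38, SE 0.17). Erap1, the trimming peptidase, was at 44.1, 65.3 and 60.8 against 46.9, 94.6 and 91.5 CPM (0.45, SE 0.31). Replicate 1 was the lowest library of Erap1 in both groups, and without Nrf2 KO replicate 1 the value was 0.71. In the mouse annotation Erap1 overlaps Cast, the calpastatin gene, which rose from 135 ± 12.2 to 231 ± 14.6 CPM (SD over 3 libraries, log2 fold change 0.78, adjusted p = 0.0299 by edgeR). It is not stated whether strand was used in counting, and the part of Cast reads in Erap1 was not tested.

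**Figure D4:**
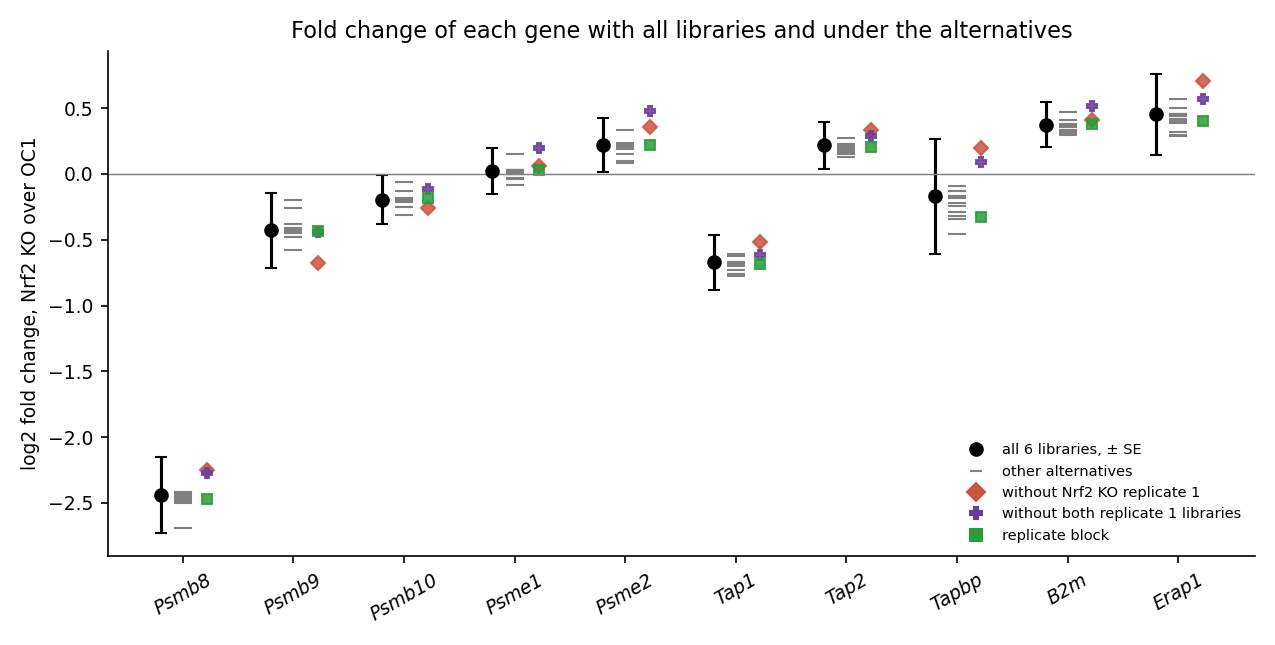
Log2 fold change of Nrf2 KO over OC1 for each of the 10 genes: black points with the SE come from all 6 libraries, grey dashes and coloured marks from the other settings. Psmb8 lies between -2.69 and -2.25 in every setting, whereas Tapbp and Psme1 cross 0.

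As a count, 5 of the 10 genes had a positive and 5 a negative log2 fold change, with a median of -0.07 beside 0.04 over all genes fitted. The groups did not overlap in 3 of them, Psmb8 and Tap1 lower and B2m higher, and the same held for 34.2% of all genes fitted. By edgeR, 1 of the 10 was under an adjusted p of 0.05, Psmb8, where 8.28% of all genes were (4.83% higher and 3.45% lower), and the other 9 were not. That count is a description, since this contrast helped to choose the genes. With the replicate number as a block, Psmb8 and Tap1 were lower and 0 higher, while 7.92% of all genes were lower and 10.4% higher (18.3% in all). Without Nrf2 KO replicate 1 those 2 were lower (14.5% of all genes) and Erap1 was higher (15.6%, and 30.2% in all). Without both replicate 1 libraries 7 genes were called, where 46.1% of all genes were: Psmb8, Psmb9 and Tap1 were lower (22.1%), and Psme2, Tap2, B2m and Erap1 were higher (24%). Without OC1 replicate 3 the count was 0, with 0.925% of all genes higher and 0.379% lower. DESeq2 called 2 lower and 0 higher (9.02% and 10.9% of all genes), limma-voom 1 and 0 (4.12% and 5.14%), and before adjustment edgeR gave 2 and 0 with p under 0.05 (11.6% and 13.4%). Paired by number, Nrf2 KO was the lower in all 3 pairs for Psmb8, Psmb9, Psmb10 and Tap1. Nrf2 KO was the higher in all 3 for Tap2, B2m and Erap1, and the pairs were mixed for Psme1, Psme2 and Tapbp. The pairing is assumed, and with the partners among numbers 2 and 3 exchanged Psmb10 would be mixed as well. The place of replicate 1 had a pattern of its own: it was the lowest library of both groups in 5 genes (Psmb8, Tap1, Tap2, Tapbp and Erap1), the highest of both in 2 (Psmb9 and Psmb10), and the highest control but the lowest Nrf2 KO library in 3 (Psme1, Psme2 and B2m).

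The rest of the pathway is described from lists of genes outside these 10, which were also chosen with earlier results known, and the p-values of single genes are adjusted over all 14618 genes. Each list's counts stand beside the same counts over all genes: 4.83% higher and 3.45% lower by edgeR, 10.9% and 9.02% by DESeq2, 5.14% and 4.12% by limma-voom, 10.4% and 7.92% with the block, and 13.4% and 11.6% by edgeR before adjustment (p under 0.05). The constitutive core, the barrel that the 3 interferon-induced subunits enter, had 14 genes, of which edgeR called 1 lower and 0 higher. Lower genes numbered 6 before adjustment, 4 by DESeq2, 1 by limma-voom and 3 with the replicate block, and higher genes 0 in each. All 14 had a negative log2 fold change, with a median of -0.49. The median was -0.385 without Nrf2 KO replicate 1 and -0.286 without both replicate 1 libraries, each time with 1 gene positive. Psma2, a subunit of the outer ring, fell from 304 ± 60.8 to 138 ± 13.5 CPM (SD, n = 3 each, log2 fold change -1.14, SE 0.20, adjusted p = 0.0233 by edgeR). The counterparts did not pass: Psmb5 had a log2 fold change of -0.43 (SE 0.27, adjusted p = 0.400), Psmb6 of -0.84 (SE 0.22, 0.0739) and Psmb7 of -0.29 (SE 0.28, 0.606). Without Nrf2 KO replicate 1, Psmb6 passed (-0.70, adjusted p = 0.0311 by edgeR) and 5 genes were lower, where 14.5% of all genes were.

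Among 9 further proteasome genes, activators, the inhibitor Psmf1 and assembly chaperones, edgeR called 1 lower and 0 higher, while DESeq2, limma-voom, the replicate block and edgeR before adjustment each gave 2 lower and 0 higher. Pomp, the maturation factor that both kinds of core need for their assembly, was at 290.0, 260.4 and 296 CPM in the control libraries and at 32.0, 91.3 and 103 in those labelled Nrf2 KO. The groups were far apart, with a log2 fold change of -1.90 (SE 0.43, adjusted p = 0.0491 by edgeR), and Nrf2 KO replicate 1 was the lowest. Without that library the value was -1.54 (adjusted p = 0.000691). Psmg3, another assembly chaperone and the second gene of those fits, was named after its values were seen (-1.49, SE 0.35, adjusted p = 0.0549 by edgeR and 0.0195 with the block).

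Peptide supply and the chaperones of class I gave no call with all 6 libraries and no block. Of 18 such genes, edgeR, DESeq2 and limma-voom each called 0 in either direction (before adjustment, edgeR gave 0 higher and 1 lower with p under 0.05), with a median log2 fold change of 0.00. Calr, the chaperone calreticulin, was at 1490 ± 80.0 and 1081 ± 380 CPM (log2 fold change -0.46, SE 0.31, adjusted p = 0.422 by edgeR). Canx, the chaperone calnexin, was at 826 ± 201 and 831 ± 317 CPM (adjusted p = 0.993). With the block, Blmh, a cytosolic peptidase, was lower. Without Nrf2 KO replicate 1, Tapbpl and Sec61g, a channel subunit of the endoplasmic reticulum, were higher (adjusted p = 0.0281 for Tapbpl by edgeR). These 2 of 18 genes stand beside 15.6% of all genes higher in that fit. Blmh, Tapbpl and Sec61g were named after their values were seen.

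Class I heavy chains and their relatives gave 22 fitted genes of 34, of which edgeR called 1 higher and 0 lower. DESeq2, and edgeR before adjustment, gave 2 in each direction, limma-voom 1 higher and 0 lower, and the block 1 in each direction, and the counts by DESeq2 are near the share over all genes (10.9% higher and 9.02% lower). Mr1, which presents microbial metabolites to T cells, rose from 1.78 ± 0.0432 to 4.23 ± 0.838 CPM (SD, n = 3 each, log2 fold change 1.25, SE 0.25, adjusted p = 0.0298 by edgeR). The 20 fitted RT1 genes carry the name of the rat class I family, which holds near-identical copies between which reads can be split, so the level of each is uncertain. The summed level of the list was 198 to 218 CPM in the control libraries and 181 to 224 in the others.

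Among 31 fitted regulators of the pathway, edgeR called 4 higher and 0 lower. Higher genes numbered 5 by DESeq2 and 4 by limma-voom, each with 1 lower gene. The block, the fit without Nrf2 KO replicate 1 (15.6% of all genes higher and 14.5% lower), and edgeR before adjustment each gave 7 higher and 2 lower genes. Irf1, a transcription factor induced by interferon gamma, was at 29.3, 29.1 and 29.7 CPM in the control libraries and at 47.1, 43.3 and 44.4 in those labelled Nrf2 KO (log2 fold change 0.61, SE 0.13, adjusted p = 0.0369 by edgeR). The groups were tight and separate, but Irf1 was under 0.05 in only 7 of 15 other settings (highest adjusted p = 0.221 by edgeR). Irf1 was not called with upper-quartile scaling, with library size alone or with no filter on low counts. Stat2 (0.89, SE 0.16, adjusted p = 0.0244), Stat3 (0.86, SE 0.19, 0.046) and the NF-kB subunit Nfkb1 (0.92, SE 0.13, 0.0117) rose as well.

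Nlrc5, the transactivator of class I genes, was at 1.15, 1.66 and 2.09 CPM in the control libraries and at 0.415, 0.143 and 0.535 in those labelled Nrf2 KO. Its counts were 45, 74 and 81 against 13, 7 and 22. All 3 lay below all controls, with a log2 fold change of -2.18 (SE 0.53, adjusted p = 0.0581 by edgeR), which did not pass. It passed by DESeq2 (adjusted p = 0.00109), by limma-voom (0.0452) and with the block (0.0334), and over 15 alternatives its adjusted p ran from 0.00109 to 0.234. Rfx5, a subunit of the complex on which NLRC5 sits at class I promoters, had a log2 fold change of -0.47 (SE 0.18, adjusted p = 0.167 by edgeR and 0.0459 with the block). Ciita, the counterpart of NLRC5 for class II genes, had 0 counts in every library, which allows up to 0.0958 CPM at 3 counts in the shallowest, for counting error only.

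When any 1 library other than Nrf2 KO replicate 1 was left out (OC1 replicate 1, 2 or 3, or Nrf2 KO replicate 2 or 3), edgeR called 0 genes in each of the 5 lists above. In these fits few genes were called at all, 0.925% to 1.82% higher and 0.379% to 0.74% lower over all genes. Before adjustment, genes with p under 0.05 in these fits were 2 to 6 lower core genes, 2 lower assembly genes, 0 to 1 lower genes of peptide supply, 1 higher and 1 to 3 lower heavy chain genes, and 4 to 8 higher and 1 lower regulators, where 8.18% to 10.9% of all genes were higher and 6.84% to 9.02% lower.

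The interferon-stimulated genes were known to be higher when the 10 genes were chosen, so their count is a description: 14 of 41 fitted genes were higher and 1 lower by edgeR, with a median log2 fold change of 0.78. The block gave 25 higher and 3 lower. The fit lacking Nrf2 KO replicate 1 gave 26 and 4, where 15.6% of all genes were higher and 14.5% lower. Fits lacking 1 of the other libraries gave 1 to 5 higher and 0 lower, where 0.925% to 1.82% of all genes were higher and 0.379% to 0.74% lower. Gbp2, a guanylate-binding protein, went from 2.70 ± 0.103 to 15.4 ± 3.53 CPM, Trim21 had a log2 fold change of 1.88 (SE 0.24), Parp9 of 1.17 (SE 0.15) and Oasl of 1.09 (SE 0.14). The lower gene, Ifitm3, had a log2 fold change of -0.96 (SE 0.19) with the block. DESeq2 called 19 higher and 4 lower, the lower ones being Ifitm1, Ifitm2, Ifitm3 and Mx1 (10.9% and 9.02% of all genes). These lower genes were named after their values were seen.

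**Figure D5:**
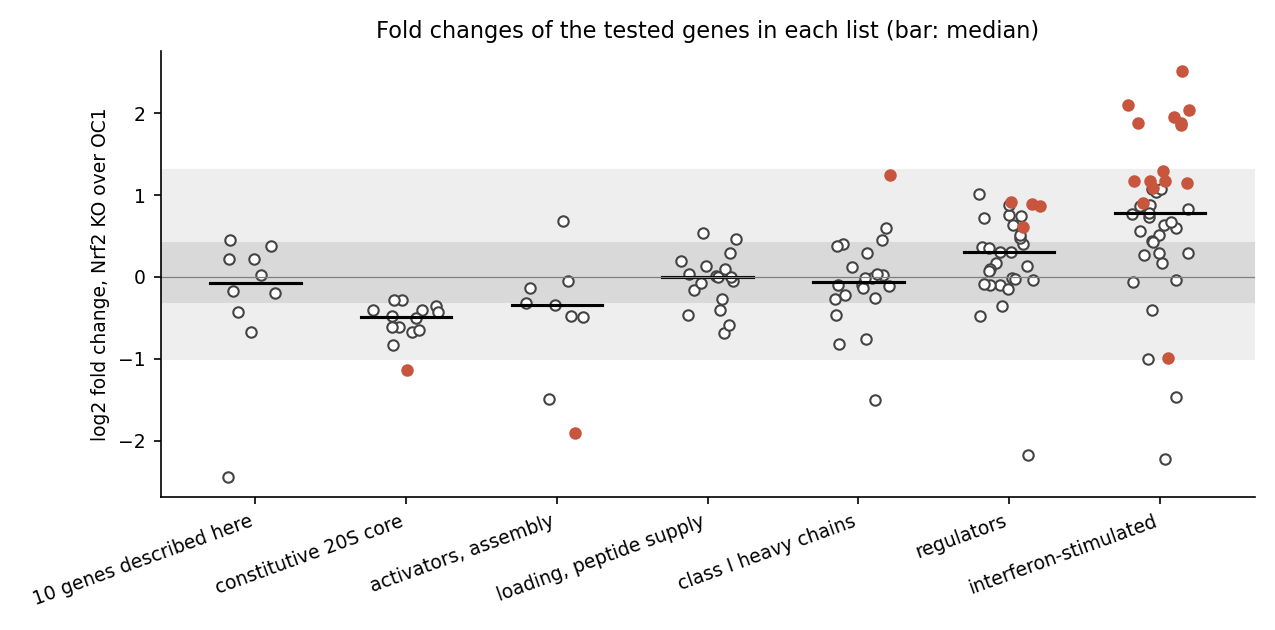
Log2 fold change of each fitted gene in the 10 genes described and in 6 lists, with a bar at the list's median and red points for genes called by edgeR (calls are not drawn for the 10 genes). Dark and light bands span the middle 50% and 90% of all genes fitted. The medians run from -0.49 in the constitutive core to 0.78 in the interferon-stimulated genes, and Psmb8 is drawn at -2.44.

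Psmb8 is abundant in blood cells, so leukocyte and antigen-presenting markers were read beside it. Of 21 markers 5 had 0 counts in all libraries (Tyrobp, Cd52, Cd3e, RT1-Da and RT1-Ba) and 4 could be fitted. Their summed level was 17.5 to 22.4 CPM in the control libraries and 13.1 to 25.4 in the others. Laptm5, a lysosomal membrane protein of blood cells, was at 3.81 ± 0.315 CPM in the control and fell to 0.465 ± 0.123 CPM (SD over 3 libraries, log2 fold change -3.03, SE 0.30, adjusted p = 0.00393 by edgeR). The other 3 fitted markers did not pass, with log2 fold changes of -0.29 (SE 0.20) for Cd14, 0.52 (SE 0.72) for Cd68 and 1.38 (SE 0.82) for Fcer1g, and the median of the 4 was 0.11. The part of such cells in the difference of Psmb8 was not tested. The label was checked on 27 inner ear markers: Jag1 (99.2 to 191 CPM) and Nes (14.5 to 32.0 CPM) were present, 7 had 0 counts in all libraries, among them the prosensory factors Sox2 and Pax2 and the hair cell genes Atoh1 and Slc26a5, and 3 of the 10 fitted were higher and 0 lower (Myo7a, Sox9 and Gata3). Over all genes, 4.83% were higher and 3.45% lower with all 6 libraries. Without Nrf2 KO replicate 1 these markers gave 5 higher and 2 lower of 11, where 15.6% of all genes were higher and 14.5% lower. Without 1 of the other libraries they gave 1 to 2 higher and 0 lower, where 0.925% to 1.82% of all genes were higher and 0.379% to 0.74% lower.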

How the data were processed

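Poly(A)-selected libraries of 3 OC1 and 3 Nrf2 KO samples were read from the authors' deposited table of whole-number counts per gene symbol. A further table deposited by the authors holds 1 FPKM value for each group. The submitters' processing notes name fastp, FastQC, HISAT2, DESeq2 1.34.0 and the human build hg18. How counting and the FPKM were done, with which annotation and strand setting, is not given in the sources used. Columns of other samples numbered 0.

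Counts were fitted with edgeR 4.0.16 in R 4.3.3 (filterByExpr with a minimum count of 10 and a minimum total of 15, TMM scaling, robust quasi-likelihood, group as the only term). This left 14618 genes, over which two-sided p-values received Benjamini-Hochberg adjustment (threshold 0.05). The SE of an edgeR log2 fold change was taken back from the test, as its size over the square root of the F statistic. It is thus no separate measure of spread. Levels are TMM-scaled CPM. The script was also run on simulated libraries that had no replicate 1 shift and no pairing, and no result given here rests on that run. Alternatives were other scalings and filters, DESeq2 1.42.0, limma-voom 3.58.1, a replicate block, each library left out, and both replicate 1 libraries left out.

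Deviations from the group means correlated between same-numbered libraries at 0.754, 0.696 and 0.310 (numbers 1, 2 and 3). All were above 0.1, so the numbers were treated as pairs, which the labels do not state. OC1 replicate 2 also correlated with Nrf2 KO replicate 3 at 0.539, and OC1 replicate 3 with Nrf2 KO replicate 2 at 0.278. The other differently numbered libraries gave -0.749 to -0.318. Partners among numbers 2 and 3 are thus not singled out, and results with the block rest on an assumed pairing. Libraries of 1 group differed by a chi-square of at least 12.2 per degree of freedom, so no pair was counted as a duplicate. The genes and lists were chosen with earlier results of these data known. Genes named were the 10 members, Nfe2l2, Psmb5, Psmb6, Psmb7, Irf1, Nlrc5, Rfx5, and in each list up to 4 called genes with the smallest p or the 2 with the highest CPM. Cast was named for its overlap, and genes said to be named after their values were seen and the marker genes lie outside this rule. Fibroblast (6 of 9 fitted higher, 0 lower, median log2 fold change 1.88) and endothelial markers (1 higher and 1 lower of 4) were also counted. By edgeR, 4.83% of all genes were higher and 3.45% lower. DESeq2 gave 6 higher and 1 lower fibroblast markers, and 1 higher and 3 lower endothelial markers (10.9% and 9.02% of all genes). A gene that this rule takes is not reported here. A planned comparison of protein sequences was not run.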

Additional observations from a re-analysis of the deposited data

How the results depend on the processing

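Directions of Psmb8, Psmb9, Psmb10 and Tap1 (lower) and of Psme2, Tap2, B2m and Erap1 (higher) were kept in all 15 alternatives, and those of Psme1 and Tapbp were not. Of the 10 genes, with 1 lower and 0 higher by edgeR, 2 were lower by DESeq2 and with the replicate block, 3 lower and 4 higher without both replicate 1 libraries, and 0 to 2 lower and 0 to 1 higher without 1 library. Over all genes, 706 were higher and 505 lower, against 1598 and 1318 by DESeq2, 1520 and 1158 with the replicate block, 3540 and 3253 without both replicate 1 libraries, and 139 to 2323 and 57 to 2162 without 1 library. Lower core genes numbered 4 by DESeq2, 3 with the replicate block, 6 without both replicate 1 libraries and 0 to 5 without 1 library. Lower activator and assembly genes numbered 2 with upper-quartile scaling, library size alone, a filter of 1 CPM in 3 libraries, DESeq2, limma-voom and the replicate block, 3 (with 1 higher) without both replicate 1 libraries and 0 to 2 without 1 library. Peptide supply had 1 lower gene with the replicate block, 5 higher and 1 lower without both replicate 1 libraries, and 0 to 2 higher without 1 library. Heavy chain genes were 2 higher and 2 lower by DESeq2 and without both replicate 1 libraries, 1 lower with the replicate block, and 0 to 1 in each direction without 1 library. Regulators were 2 higher with no filter on low counts, 1 lower by DESeq2 and limma-voom, 7 higher and 2 lower with the replicate block, 11 and 3 without both replicate 1 libraries, and 0 to 7 and 0 to 2 without 1 library. Interferon-stimulated genes were 2 lower with upper-quartile scaling and library size alone, 4 lower by DESeq2, 25 higher and 3 lower with the replicate block, 30 and 4 without both replicate 1 libraries, and 1 to 26 and 0 to 4 without 1 library. The log2 fold change of Canx, 0.01, turned to -0.054 with upper-quartile scaling, -0.031 with library size alone, -0.001 with no filter on low counts, -0.063 by limma-voom and -0.046 with the replicate block, and ran from -0.191 to 0.292 without 1 library. That of Psmb7, -0.29, turned to 0.016 without both replicate 1 libraries. The causes were not tested. The median log2 fold change of all genes lay between -0.013 and 0.05 under the 4 scalings. With 3 libraries a group, the differences of Psme2, Psmb10 and Tap2 were close to their standard errors. Those of Psme1 and Tapbp were below theirs, and low counts limit Nlrc5.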
